A study of Schizosaccharomyces pombe with 4 samples.

Results

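The mating-type locus of fission yeast (Schizosaccharomyces pombe) was followed through 342 of the 41551 genomic probes of a tiling array. The rule that chose them uses the position in the probe name alone and no measured value. It was set with earlier results of these data known. Of these, 232 probes tile chromosome 2 from 2100000 to 2170000, which takes in the locus and about 30 kb to each side, and 110 tile a separate contig of the array that is named for the mating type and runs from 0 to 41100. The genome build of these positions is not given in the sources used here, so places are named by position on their tiling and no gene is assigned to a probe.

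Histone H3 trimethylated at lysine 9 (H3K9me3) was precipitated from exponentially growing, asynchronous cultures fixed with paraformaldehyde. The precipitated (IP) DNA and the whole-cell extract (input) DNA of the same cells were hybridised together. The 4 strains are named WT and IRD1 to IRD3, and the titles of all of them, WT included, carry the further tag REIID. The labels spell out neither IRD nor REIID and give no further genotype. Each strain had 1 array, so no difference below has a test, a replicate error or a p-value, and strain cannot be told apart from the culture and hybridisation of that strain.

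Fission yeast holds its mating-type information in an expressed cassette, mat1, and in silent copies, mat2 and mat3, that lie to its right in a block of heterochromatin. The methyltransferase Clr4 places methyl groups on H3K9 and the chromodomain protein Swi6 binds them, which keeps the silent cassettes unread. Inverted repeats on the left and right of the silent block are known as boundaries of this heterochromatin. In the ASM294v3 RefSeq annotation, the neighbours run in the order rga7, the mat1 genes mat1-Mi and mat1-Mc, several genes that include mag2, rpt6 and rpp202, the mat3 genes mat3-Mi and mat3-Mc, and emc3. This order is background only and was not laid onto the probes.

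Values are log2 ratios of IP over input, with the median genomic probe of each array at 0. Between 325 (IRD1) and 334 (IRD2) of the 342 probes gave a ratio. The modelled error of a single spot's log2 ratio, which the image software estimates and which says nothing of the spread between cultures, had a median of 0.23 on each array. Neighbouring chromosome probes outside these 342, without the suffix f or m described below, scattered with an SD of 0.26 to 0.30. It was estimated from the median absolute deviation of differences between neighbours, and heterochromatin was not left out. Mitochondrial probes, which carry no histones, lay between -2.20 (IRD3) and -1.66 (WT). Probe names with the suffix f or m, whose meaning the files do not state, made up 27 probes of the chromosome 2 tiling and 60 of the contig, which is 25.4% of the 342 against 4.08% of the whole array.

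The locus stood out in all 4 strains. A ratio of at least 3 was reached by 78 of 333 probes in WT (23.4%), where 1.6% of all probes of the array did so. In IRD1 it was 78 of 325 probes (24.0%, against 1.92% of the array), in IRD2 82 of 334 (24.6%, against 1.79%) and in IRD3 80 of 330 (24.2%, against 1.96%). In WT the running median of 5 probes was at or above 3 in 4 stretches. The main domain ran from 2131200 to 2138400 on chromosome 2 (7.2 kb, 25 probes) and from 19800 to 39300 on the contig (19.5 kb, 52 probes). A short block to its left ran from 2115900 to 2117100 on chromosome 2 and from 4200 to 5400 on the contig.

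**Figure D1:**
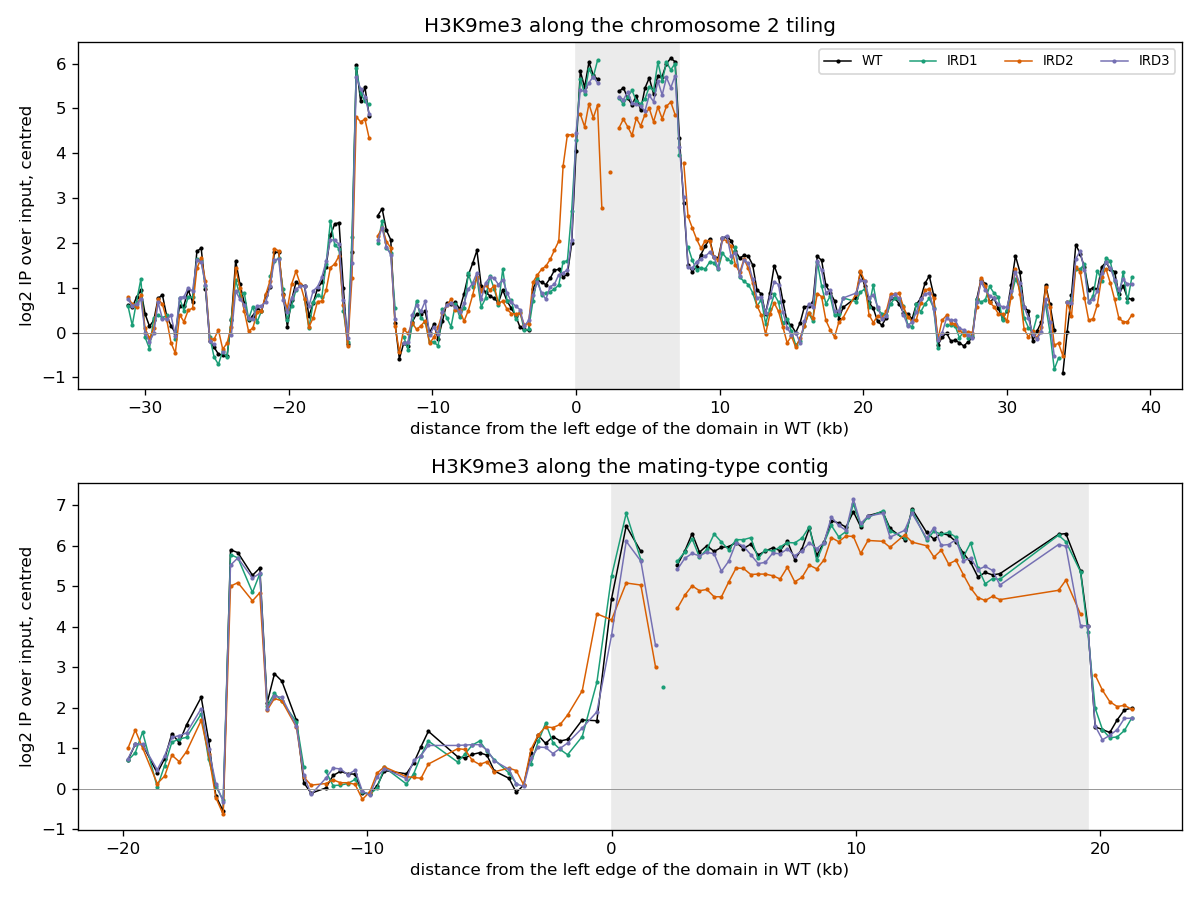
Log2 IP over input for every member probe with a ratio, by distance in kb from the left edge of the WT domain, on the chromosome 2 tiling (top) and the mating-type contig (bottom), with 1 line per strain. The grey band is the domain, drawn on WT. All 4 strains are high in the band and in a short block about 15 kb to its left, and IRD2 is lower than the others in both while it is higher just outside the band.

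Both tilings gave the same outline at their ends. When the left end of the contig was slid along chromosome 2 in steps of 300 bp, the ratios matched best at a shift of 2111700 in every array, with Pearson's r of 0.94 in WT, 0.92 in IRD1, 0.95 in IRD3 and 0.94 in IRD2 over 47 to 51 probe pairs. The best distant shift gave 0.45 to 0.47. The right end matched best at 2099400 in WT, IRD2 and IRD3 and at 2099100 in IRD1, with r of 0.98 to 1.0 over 11 to 13 pairs, where distant shifts also reached 0.84 to 0.92. The pairs of an array share its hybridisation and probes are not replicates, so these are descriptions. The left and right shifts differed by 12.3 kb in WT, IRD2 and IRD3 and by 12.6 kb in IRD1, and the domain was 19.5 kb long on the contig and 7.2 kb on chromosome 2. The input channel matched best at 2111400 on the left in all 4 arrays, and at 2099400 on the right in IRD1 and IRD2 but not in WT and IRD3. Where values of both tilings are given below, they may therefore read the same DNA and do not count as independent.

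The input channel showed where each strain had DNA that the probes could find. A probe was taken as without input when its input was not well above background or was under -3 on the log2 scale relative to the array median. This held for 8 of the 342 probes in WT (2.34%, against 0.335% of the array), 9 in IRD1 (2.63%, against 0.325%), 11 in IRD2 (3.22%, against 0.354%) and 10 in IRD3 (2.92%, against 0.274%). The probes that the image software marked as not well above background in the input were 7 in WT, 6 in IRD1, 6 in IRD3 and 7 in IRD2 on the whole array, and all of them lay in this region.

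The same 8 probes were without input in all 4 strains. On chromosome 2 these were 2117100, the last probe of the left block, and the run 2133000, 2133300, 2133600 and 2133900 inside the domain. On the contig they were 21600, 21900 and 22200, also inside the domain. At 2117100 the log2 input was -9.51 in WT, -8.06 in IRD1, -9.94 in IRD3 and -8.56 in IRD2. At 2133900 it was -9.36, -9.22, -9.57 and -9.67 in the same order of strains. Neither probe was well above background in any strain. Most of these spots gave no ratio, and the gaps they leave in the profiles say nothing about the mark there. Ratios remained at 2133000 (2.77) and 2133600 (3.59) in IRD2, and at 21900 in IRD1 (2.52). At 21600 they remained in IRD2 (3.01) and IRD3 (3.54). These ratios rest on almost no input. They are included in the domain levels, and 3.59, 3.01 and 3.54 also in the counts at or above 3.

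Another 6 probes were without input in a single strain, and all 6 sit at or next to an edge of the domain. In IRD2 the outermost probe of the domain on the left of chromosome 2, 2131200, had a log2 input of -8.16, where IRD1 had -0.37, IRD3 -0.19 and WT -0.33. With the lowest input marked well above background on that array in its place, this is 197-fold lower than in WT. The value put in its place was -7.95, which is that of the outlier spot 2138400 described next, so the fold is an estimate and not a limit. The outermost probe on the right, 2138400, had -7.95 in IRD2 against -0.33 in WT, -0.01 in IRD1 and -0.34 in IRD3. This spot of IRD2 was marked as an outlier by the image software, so it has no ratio and no fold is given. The rightmost domain probe of the contig, 39300, had -7.89 in IRD2 where WT had -0.16, IRD1 -0.30 and IRD3 -0.23. From that value, which was not well above background, it is 213-fold lower than in WT, again an estimate. So IRD2 had 3 such probes, with 1 at each edge on chromosome 2, of which the right one was the outlier spot, and 1 at the right edge of the contig. All 3 carry the suffix f in their names, and where probes with this suffix find their DNA was not tested.

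IRD1 and IRD3 lacked input at other probes. In IRD1 it was 2138700, the next probe outward on the right of chromosome 2. Its input was -7.21, against -1.11 in WT, -1.12 in IRD3 and -0.59 in IRD2. With the lowest input marked well above background on the IRD1 array in its place, this is 64.5-fold lower than in WT, again an estimate. In IRD3 it was 19800, the leftmost domain probe of the contig, at -6.36 against -0.45 in WT, -0.71 in IRD1 and 0.18 in IRD2 (60.1-fold lower than in WT). The second probe of IRD3 was 39000, next to the right end of the contig's domain, at -5.80 against 0.38 in WT, 0.22 in IRD1 and 0.19 in IRD2 (72.7-fold lower than in WT). In IRD3 the input of both probes was well above background, so they still gave ratios, 3.79 at 19800 and 4.03 at 39000. In IRD3 no chromosome 2 edge probe was without input. Both IRD3 probes carry the suffix f in their names, and the IRD1 probe does not.

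**Figure D2:**
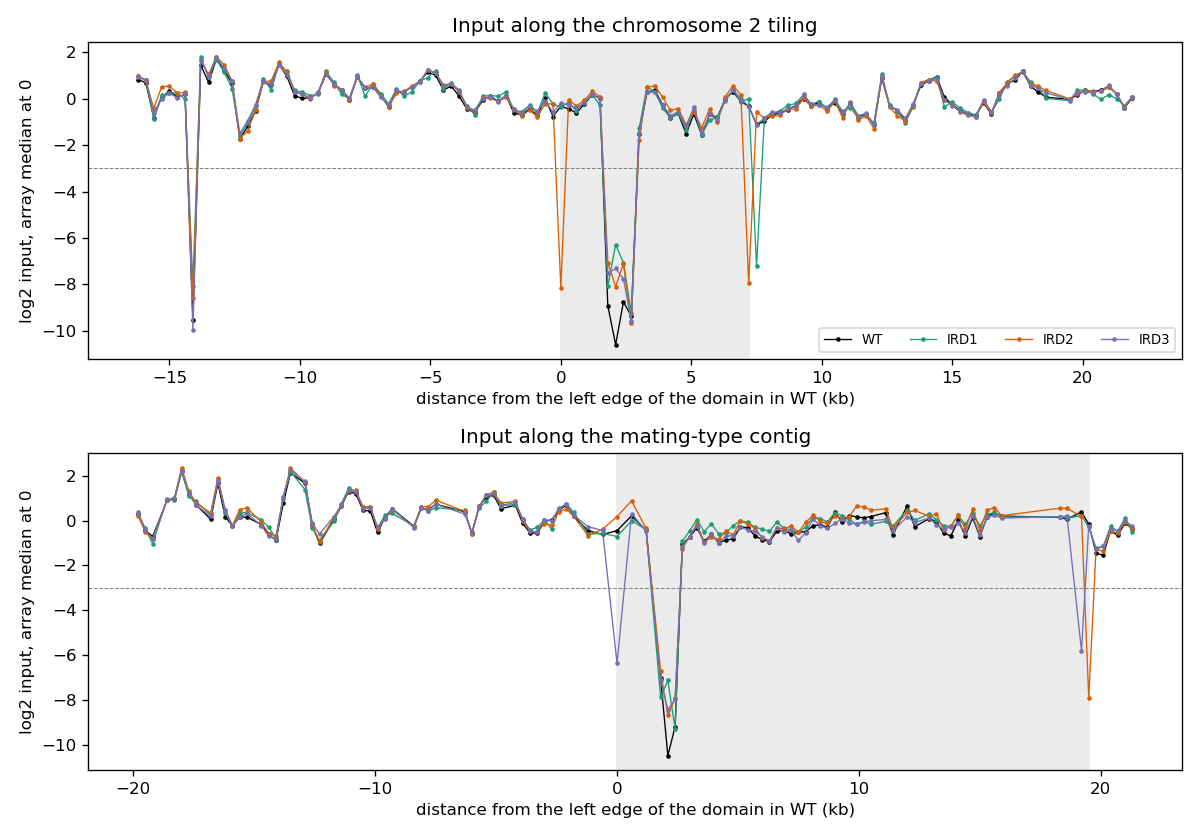
Log2 input relative to the array median, by distance in kb from the left edge of the WT domain (grey band), for the part of the chromosome 2 tiling nearest the domain (top) and for the whole contig (bottom), with 1 line per strain. The dashed line at -3 is the limit for a probe without input. The dips shared by all strains lie at 1 probe left of the band and at 1 run inside it on chromosome 2 and at 1 run on the contig, and the dips of single strains lie at the edges of the band.

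Inside the domain the ratio was high at the probes with input and not flat. Over the domain of the contig the median ratio was 6.0 in WT, 6.10 in IRD1, 5.86 in IRD3 and 5.29 in IRD2, and over that of chromosome 2 it was 5.47, 5.40, 5.30 and 4.78. So the contig read higher than chromosome 2 in every strain. Levels of different probes are not calibrated against each other, so this order describes the tilings only.

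Along the contig the ratio rose from the left towards a crest and fell again, in all 4 strains. Since levels of different probes are not calibrated, whether this shape comes from the mark or from the probes was not tested. In fixed bins of 3 kb, WT had medians of 5.86 at 21000, 5.94 at 24000, 6.27 at 27000, 6.47 at 30000 and 5.70 at 33000. IRD1 had 5.72, 6.03, 6.20, 6.51 and 5.90 in these bins. IRD2 had 4.89, 5.28, 5.59, 6.09 and 5.13, and IRD3 had 5.69, 5.79, 6.08, 6.55 and 5.66. The bin from 30000 was the highest in every strain. The highest and lowest of these 5 bins were 0.77 apart in WT, 0.79 in IRD1 and 0.89 in IRD3, and 1.20 apart in IRD2. The highest single probes lay near the crest too, at 29700 in IRD1 (7.04) and IRD3 (7.15), at 31800 in IRD2 (6.27) and at 32100 in WT (6.91). The lowest with input was 39300 for WT (4.02), IRD1 (3.87) and IRD3 (4.02), a probe without input in IRD2, and 19800 in IRD2 (4.17).

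On chromosome 2 the highest domain probe was the same, 2137800, in WT (6.12) and IRD2 (5.14), and was 2132700 for IRD1 (6.07) and 2138100 for IRD3 (5.73). The lowest with input was 2131200 in WT (4.06), 2138400 in IRD1 (3.96) and IRD3 (4.13), and 2135100 in IRD2 (4.40). The lowest probes of WT, IRD1 and IRD3 were thus edge probes, and the lowest of IRD2, where both edge probes had no input, was an inner one.

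IRD2 was lower than WT almost everywhere inside the domain. Over both tilings the per-probe difference from WT had a median of -0.68 (quartiles -0.93 to -0.52), and 66 of 67 probes were lower. The median was -0.70 on chromosome 2 and -0.64 on the contig. The IP channel alone was lower by a median of -0.43, again in 66 of 67 probes, while the input channel was higher by 0.21, in 57 of 67. IRD1 had a median difference of -0.03, with 30 probes higher and 40 lower, and IRD3 of -0.13, with 19 higher and 51 lower. Over all genomic probes these medians were -0.03 for IRD2, -0.08 for IRD1 and -0.06 for IRD3. On the whole array the ratio was lower in 21987 of 40874 probes in IRD2, 23299 of 38153 in IRD1 and 24176 of 39395 in IRD3. The 40 lower of 70 in IRD1 thus lie near the array's share. In IRD2 the IP was lower in 19770 and the input higher in 21265 of the 40874. The domain was drawn on WT, which can lower the difference at its edges.

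Heterochromatin elsewhere was lower in IRD2 too. Probes of chromosomes 1 and 3 that were heterochromatic in WT had a median difference of -0.31 in IRD2, against -0.02 in IRD1 and 0.03 in IRD3. When ratios were rescaled so that this heterochromatin was equal in all arrays, the domain difference of IRD2 was -0.29, and with loess within each array, which removes part of a shift that depends on intensity, it was -1.91. The size of the lower level in IRD2 therefore depends on the scale chosen, and its direction was negative under every alternative run.

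Bins fixed by position, which do not depend on the WT level, placed this difference. A bin was counted when the median difference was at least 0.5 in size. In IRD2, 11 of 37 bins were lower, against 2.3% of the array's bins, and 1 was higher, against 0.84%. IRD1 and IRD3 had 0 bins in either direction, where the array had 0.984% lower and 0.96% higher bins in IRD1 and 0.144% and 0.936% in IRD3. The lower bins were 8 of the 10 that touch the domain, 1 of the 2 that touch the left block and 2 of the 25 in the flanks, and the higher bin, at 18000 on the contig, spans the left edge. There were 0 higher bins with normexp or loess. The lower bins of IRD2 were 4 in the IP channel alone, an alternative chosen after seeing the data, and 3 after the rescaling.

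Among the bins with at least 4 probes, the fall in IRD2 was deepest just inside the left end of the contig's domain. Between the bins at 33000 and 39000 the contig had too few probes for a bin, so the right end was not ranked. Single probes there fell too, by -1.38 at 38100 and -1.15 at 38400. The bin at 21000 differed from WT by -1.07, with -1.06 in the IP channel and 0.00 in the input. The next bins, at 24000, 27000, 30000 and 33000, differed by -0.70, -0.50, -0.61 and -0.53, with IP differences of -0.50, -0.25, -0.16 and -0.23 and input differences of 0.16, 0.16, 0.28 and 0.30. The ratio was thus lower through the IP channel alone at 21000, and through a lower IP and a higher input together to the right of it. On chromosome 2 the 3 domain bins, at 2130000, 2133000 and 2136000, differed by -0.57, -0.66 and -0.70. After the scaling to heterochromatin, 3 bins stayed at or below -0.5: the contig bin at 21000 (-0.71) and the flank bins at 2148000 (-0.75) and 2169000 (-0.51).

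**Figure D3:**
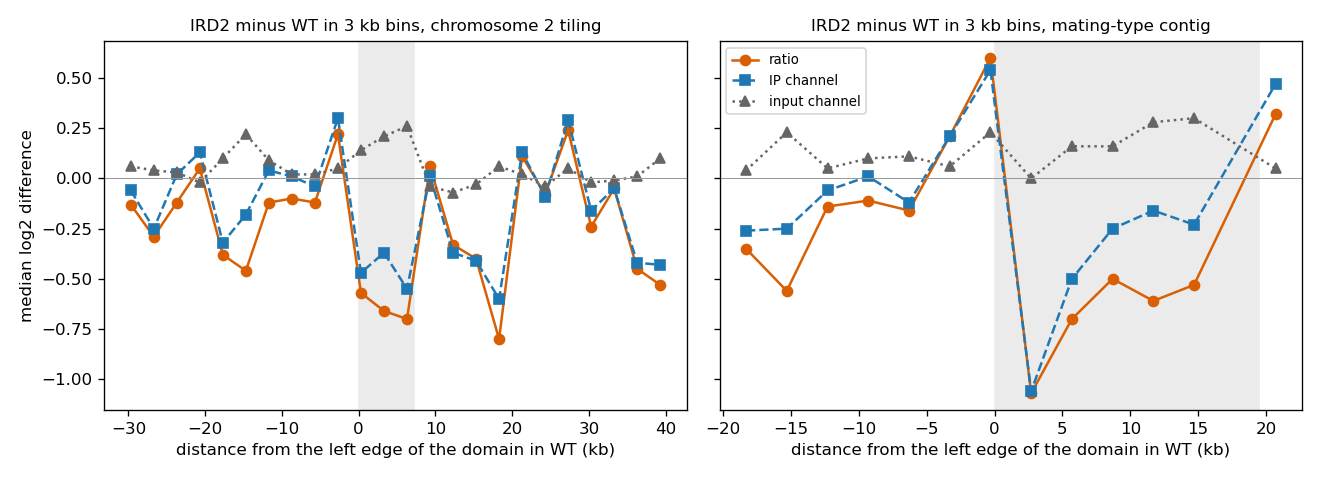
Median difference between IRD2 and WT in fixed bins of 3 kb, by distance in kb from the left edge of the WT domain (grey band), for the ratio (circles), the IP channel (squares) and the input channel (triangles). In the contig bin just right of the left edge the ratio and IP fall together to -1.07 and -1.06 with the input at 0.00, and the bin across the left edge is higher by 0.60.

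Single probes showed the same pattern. In IRD2, 12 of 330 members were lower than WT by at least 1, against 0.323% of the array, and 6 were higher, against 0.536%. The lower count was 2 after the rescaling, 69 with loess, 19 with normexp and 5 without probes of suffix f or m. The counts were 0 and 0 of 323 in IRD1, against 0.0996% lower and 0.595% higher on the array, and 1 lower and 0 higher of 329 in IRD3, against 0.112% and 0.657%. Of the 12 lower probes, 11 were inside the domain and the other was 2115900, the first probe of the left block. The largest falls were at 20400 on the contig (from 6.49 in WT to 5.08), 38100 (from 6.28 to 4.90), 23100 (from 6.30 to 5.01) and 24300 (from 5.96 to 4.74), and at 2138100 on chromosome 2 (from 6.04 to 4.86). The modelled errors of these 12 differences were 0.73 to 0.86, so each single fall of 1.07 to 1.41 was under 2 modelled errors and it is their common direction that the bins describe. The 1 lower probe of IRD3 was 39000 (5.38 in WT and 4.03 in IRD3), which had almost no input in that strain.

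**Figure D4:**
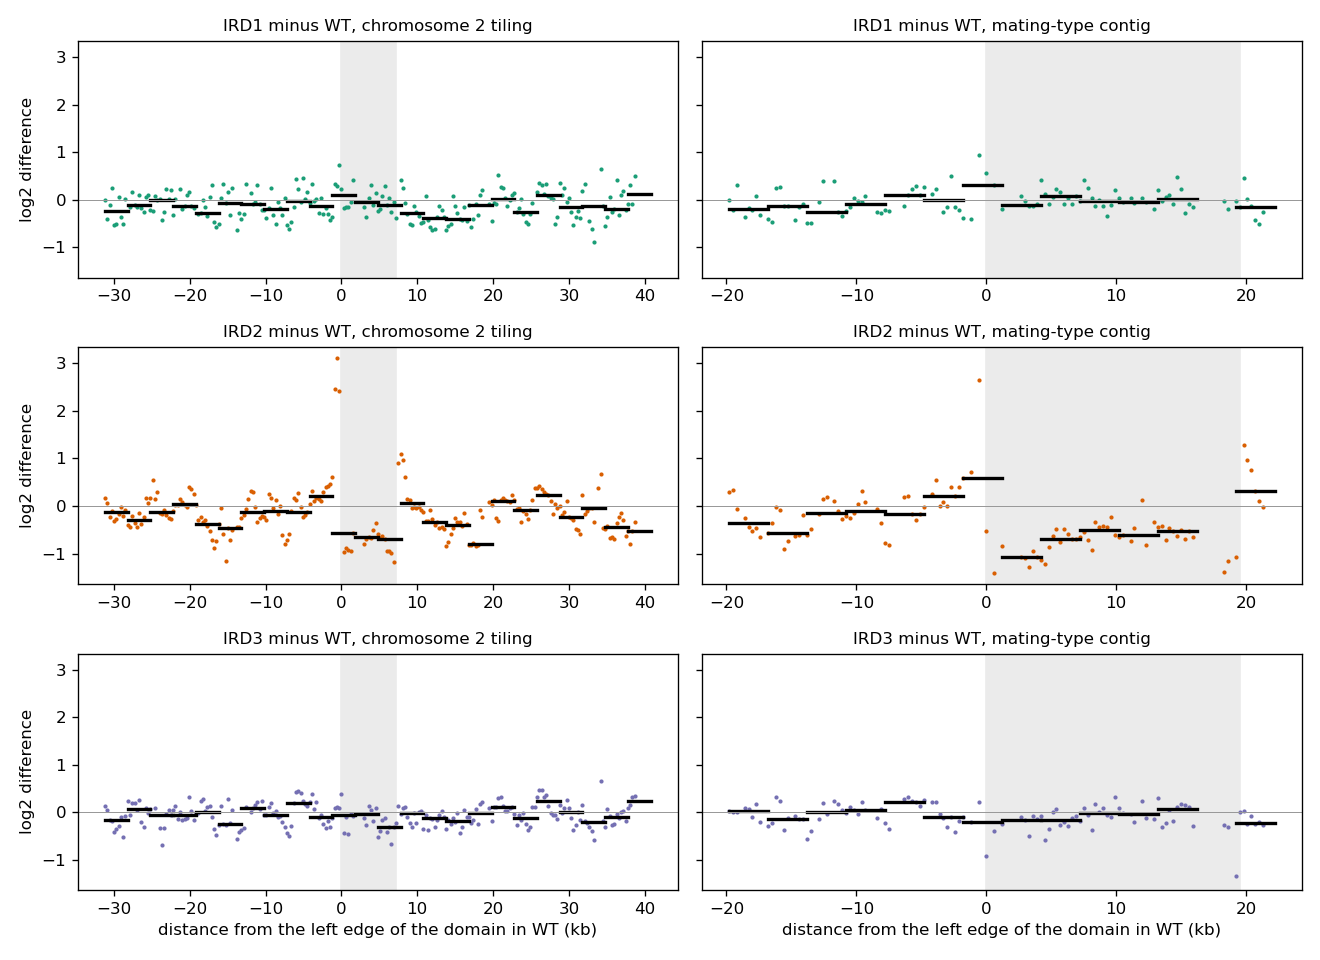
Per-probe difference in log2 ratio from WT for IRD1 (top), IRD2 (middle) and IRD3 (bottom) on chromosome 2 (left) and the contig (right), by distance in kb from the left edge of the WT domain (grey band), with black bars for the medians of 3 kb bins. No bin median of IRD1 or IRD3 reaches 0.5 in size, and IRD1 is lower by a median of -0.36 in the first 10 kb right of the band. IRD2 lies below 0 in most of the band and rises to 3.11 just left of it.

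Just outside the domain the order turned, and IRD2 was the highest strain. The edges were drawn where WT falls, which can raise the differences from WT just outside them. The left edge on chromosome 2 showed it most. At 2130900, the first probe outward, the ratio was 1.99 in WT, 2.72 in IRD1, 2.07 in IRD3 and 4.41 in IRD2. At 2130600 it was 1.30, 1.60, 1.40 and 4.41, and at 2130300 it was 1.24, 1.58, 1.33 and 3.71. IRD2 was thus the highest strain at these 3 probes, at 3.71 to 4.41, where the other strains had between 1.24 and 2.72. The differences of IRD2 from WT were 2.42, 3.11 and 2.47, with modelled errors of 0.55, 0.53 and 0.48.

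The rise lay in the IP channel. At 2130600 the IP was higher in IRD2 than in WT by 2.89 and the input differed by -0.25. At 2130300 the IP differed by 2.45 and the input by -0.06, and at 2130900 the IP by 3.00 and the input by 0.54. Further out the strains drew together: at 2130000 the ratio was 1.41 in WT, 1.06 in IRD1, 1.29 in IRD3 and 2.04 in IRD2, and at 2129700 it was 1.39, 0.97, 1.08 and 1.84.

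The left edge of the contig repeated this at its wider probe spacing. At 19200 the ratio was 1.68 in WT, 2.63 in IRD1, 1.90 in IRD3 and 4.32 in IRD2, and at 18600 it was 1.70, 1.29, 1.5 and 2.42. IRD2 differed from WT by 2.64 at 19200, with 2.90 in the IP channel and 0.23 in the input. The next probes, 18000, 17700 and 17400, lay at 1.82, 1.59 and 1.51 in IRD2 and at 1.22, 1.18 and 1.29 in WT. The first probe outward was also where IRD1 rose most against WT of all members, by 0.95 at 19200 and 0.73 at 2130900, under the fold of 1 and with modelled errors of 0.42 and 0.43. In IRD3 these probes differed from WT by 0.22 and 0.08.

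On the right the difference was smaller. At 2138700 the ratio was 2.88 in WT, 3.02 in IRD3 and 3.79 in IRD2, and IRD1 had no input there. At 2139000 it was 1.5 in WT, 1.91 in IRD1, 1.46 in IRD3 and 2.59 in IRD2, and at 2139300 it was 1.36, 1.61, 1.44 and 2.33. On the contig, 39600 gave 1.53, 1.99, 1.55 and 2.81, and 39900 gave 1.46, 1.46, 1.21 and 2.43, in the same order of strains. IRD2 was highest at each of these probes, and by the fifth probe outward, 2139900 on chromosome 2 and 40800 on the contig, it differed from WT by 0.14 and 0.11.

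All 6 probes that were at least 1 higher in IRD2 belong to these edges: 2130600, 2130300, 2139000 and 2130900 on chromosome 2 and 19200 and 39600 on the contig. With loess, the differences at 2130900, 2139000 and 39600 were 0.82, 0.69 and 0.81, and those at 2130600, 2130300 and 19200 were 1.82, 1.78 and 1.55. The nearest domain probes on chromosome 2, 2131200 and 2138400, are those without input in IRD2. Whether the missing input there had a part in the rise was not tested.

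**Figure D5:**
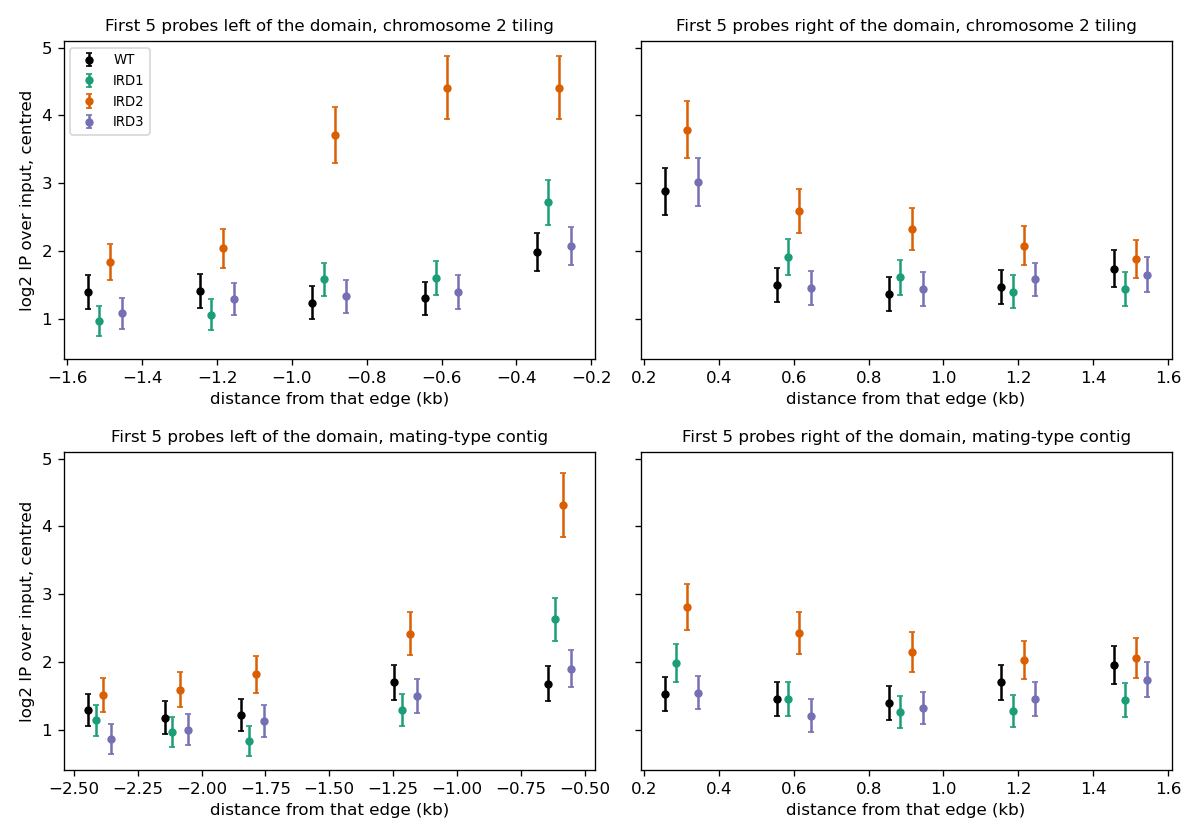
Log2 IP over input at the first 5 probes outward of each edge of the WT domain, by distance in kb from that edge, on chromosome 2 (top) and the contig (bottom), left and right of the domain. Bars are the modelled error of the single spot, not a replicate error. IRD2 stands at 3.71 to 4.41 at the 3 nearest probes on the left of chromosome 2, where WT has 1.24 to 1.99, and the strains converge outward.

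The distance over which the mark stayed raised was read from the running median of 5 probes. It was counted from the edges drawn on WT, which can shorten the reach of WT against the other strains. At or above 2, it reached 1.2 kb left and 1.8 kb right of the chromosome 2 domain in IRD2, where IRD1 and IRD3 had 0.3 and 0.3 kb and WT had 0.0 and 0.3 kb. Left of the contig's domain the same reach was 0.0 kb for WT and IRD3, 0.6 kb for IRD1 and 1.2 kb for IRD2. At or above 1, the left-hand reach on chromosome 2 was 2.7 kb in WT, 1.2 in IRD1, 2.1 in IRD3 and 3.0 in IRD2, and the right-hand reach 4.8 kb in IRD1 and 5.1 kb in the other strains. At the higher threshold IRD2 thus reached furthest, and at the lower one the strains differed by at most 1.8 kb leftward and 0.3 kb rightward.

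The left block was a second place of high ratios, and the flank between it and the domain was low. It begins 15.3 kb left of the domain on chromosome 2 and 15.6 kb left of it on the contig. At 2115900 the ratio was 5.96 in WT, 5.89 in IRD1, 5.69 in IRD3 and 4.81 in IRD2, and at 2116800 it was 4.83, 5.09, 4.88 and 4.33. On the contig, 4200 gave 5.90, 5.78, 5.52 and 5.0, and 5400 gave 5.45, 5.31, 5.32 and 4.84. IRD2 was the lowest strain at all these probes.

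Over the block the medians were 5.32 in WT, 5.25 in IRD1, 5.35 in IRD3 and 4.73 in IRD2 on chromosome 2 (4 probes with a ratio), and 5.64, 5.50, 5.42 and 4.92 on the contig (4 probes). IRD2 was lower than WT by a median of -0.61 and -0.69, in 4 of 4 probes on each tiling, close to its difference of -0.68 inside the domain. The block is narrow. In WT the probe before it, 2115600, stood at 1.8, and the first probes after it with a ratio, 2117400 and 2117700, stood at 2.61 and 2.76 before the level fell to 0.21 at 2118600. Every probe of the block with a ratio has the suffix f in its name, as do the contig probes of the block. Since probes with this suffix made up all 8 members at or above 3 outside the domain in WT, it was not tested whether the block is methylated at its own place or reads DNA from elsewhere. The suffix f or m is also carried by 16 of the 25 domain probes on chromosome 2 and 14 of the 52 on the contig, where the same was not tested. Without them the domain level was 6.0 in WT and the domain difference of IRD2 was -0.62.

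Away from the domain the flanks were low and uneven. The whole left flank, the block included, had a median of 0.76 in WT, 0.71 in IRD1, 0.75 in IRD3 and 0.63 in IRD2, and the whole right flank 0.78, 0.69, 0.79 and 0.47. These sat above the array median of 0 in all 4 strains. With loess the left flank was 0.39 in WT, 0.39 in IRD1, 0.34 in IRD3 and 0.29 in IRD2.

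The first 10 kb to the right of the domain were raised in their nearer part. Over these 10 kb the median was 1.5 in WT, 1.06 in IRD1, 1.39 in IRD3 and 1.11 in IRD2. It was 0.86, 0.72, 0.89 and 0.74 in the first 10 kb to the left. In the bin at 2139000 the level was 1.71 in WT, 1.56 in IRD1, 1.66 in IRD3 and 2.05 in IRD2. In the same order it was 1.58, 0.98, 1.23 and 1.22 at 2142000, and 0.58, 0.23, 0.36 and 0.14 at 2145000. IRD1 differed from WT over these 10 kb by a median of -0.36, with 28 of 32 probes lower, IRD2 by -0.31, with 27 of 33 lower, and IRD3 by -0.12, with 26 of 33 lower. On the whole array 23299 of 38153 probes were lower in IRD1, 21987 of 40874 in IRD2 and 24176 of 39395 in IRD3. The comparisons share the WT array, so a high WT would lower all 3.

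Beyond this raised part, IRD2 had the bin with the largest fall outside the domain. The bin begins inside the first 10 kb, so its first probes also count in the median of those 10 kb. In the 8 probes from 2148000 the median ratio was 0.84 in WT, 0.73 in IRD1, 0.88 in IRD3 and 0.30 in IRD2, and IRD2 differed from WT by -0.80, with -0.60 in the IP channel and 0.06 in the input. The bin at 2169000, of 4 probes, gave 0.81, 1.0, 1.08 and 0.28, with a difference of -0.53 in IRD2. In both bins IRD2 was the lowest strain. The cause of either difference was not tested.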

How the data were processed

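H3K9me3 was measured by chromatin immunoprecipitation on Agilent 2-colour arrays in 4 samples. Per the labels, Cy5 carries immunoprecipitated DNA and Cy3 whole-cell extract DNA, so ratios run IP over input. Groups were taken from the titles, because the genotype and antibody labels of IRD1 and IRD3 are exchanged. Per the file headers, Agilent Feature Extraction 12.0.3.1 produced the intensity values, and the 4 arrays share 1 slide and 1 scan. The deposited processed intensity values are background-subtracted and dye-normalized; those of IRD1 and IRD3 are rounded. The deposited files also give a log10 ratio with its modelled error, of which only the error was used, as log2. The deposited value table holds linear ratio values that are not centred (medians 1.11 for WT and IRD2, 1.04 for IRD1 and 1.06 for IRD3), which differed from the arrays' own signals by at most 0.013 on the log2 scale.

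From these, log2 of the processed red over green intensity was centred on each array's median genomic probe. Spots marked as outliers (1.13% in WT, 7.33% in IRD1, 4.28% in IRD3 and 0.539% in IRD2) and probes with input not well above background had no ratio. The domain was the run in WT with a 5-probe running median of at least 3, runs up to 3.0 kb apart joined. A modelled error of a difference is the root of the summed squares of both spots' errors. The probes and lists were chosen with earlier results of these data known. Named probes were those without input, the 5 largest rises and falls per comparison, the domain's extremes, the first 5 probes outward of each edge and the highest of the outer flanks; the neighbours of the left block and the named bins were chosen after their values were seen. Alternatives included normexp (offset 50) and loess (span 0.3) with limma 3.58.1 in R 4.3.3, and the summaries used python 3.11.15, numpy 2.4.6 and pandas 2.3.3. The domain, median and reach steps were tested on simulated data. Probe sequences and genes were not used here.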

Additional observations from a re-analysis of the deposited data

How the results depend on the processing

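Of 318 values under alternative settings, 279 stayed within the limits set for them (the scatter between neighbouring probes for levels, 1.5 kb for reach and 1.5 times for counts), and 39 moved. The domain difference of IRD1, -0.03, took the other sign with normexp (0.02), after the rescaling (0.10), with the mean (0.01) and in the IP channel alone (0.19), so it has no settled direction. Loess within each array moved most: the domain level was 4.05 in WT, 3.91 in IRD1, 3.66 in IRD3 and 2.13 in IRD2, the left flank 0.39 in WT, 0.39 in IRD1, 0.34 in IRD3 and 0.29 in IRD2, and the domain difference of IRD2 -1.91, with 3 probes higher, 69 lower and 0 bins higher in IRD2 and 2 probes higher and 2 lower in IRD3. Normexp gave a right-hand reach of 3.9 kb at a threshold of 2 in IRD2, 19 lower probes and 0 higher bins in IRD2, and 2 lower probes in IRD3. Scaling to the heterochromatin of chromosomes 1 and 3 gave IRD2 a domain difference of -0.29, 2 lower probes and 3 lower bins. Without probes of suffix f or m, IRD2 had 5 lower probes and IRD3 had 0, as IRD3 did without probes of weak input. The mean in place of the median gave IRD2 a left flank of 0.94. A fold of 0.8 gave 1 higher and 1 lower probe in IRD1, 34 lower in IRD2 and 2 lower in IRD3, and a fold of 1.5 gave 0 lower in IRD2 and 0 in IRD3. Bins of 1.5 kb gave 1 lower in IRD1, 4 higher and 20 lower in IRD2 and 1 lower in IRD3, and bins of 6 kb gave 0 higher and 5 lower in IRD2. The IP channel alone, an alternative chosen after seeing the data, gave 1 higher bin in IRD1 and 4 lower in IRD2. The causes were not tested. No paired analysis was possible because each strain has 1 array, and for the same reason no array could be left out. With 1 array per strain, the number of arrays limits the precision of every difference.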
